A study of Mus musculus with 4 samples.

Results

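The vomeronasal receptor genes and pseudogenes were taken as every row of the deposited accessibility table whose gene symbol begins with Vmn1r or Vmn2r, 399 of 46406 rows. They comprised 145 Vmn1r genes, 88 Vmn1r pseudogenes (symbols with -ps), 92 Vmn2r genes and 74 Vmn2r pseudogenes, and a gene without -ps is called intact below. Vmn1r216 and Vmn2r-ps34 each stood on 2 rows. Chromatin accessibility had been measured by ATAC-seq, in which the Tn5 transposase cuts and tags open DNA, in J1 mouse embryonic stem cells labelled passage PN+8 and grown without feeder cells. There were 2 control libraries, with the genotypes "wild type1" and "wild type2", and 2 libraries from cells overexpressing Zscan4, with the genotypes "Zscan4 OE1" and "Zscan4 OE2". Zscan4 is a zinc finger protein of the early embryo that a small share of embryonic stem cells makes at a time. The labels name no promoter or vector for the overexpression, and they do not say whether the libraries of a group came from separate cultures or clones, so the p-values reflect how these 4 libraries scatter, and that scatter may be technical alone.

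Vomeronasal receptors are G protein-coupled receptors that detect pheromones and signals from other species in sensory neurons of the vomeronasal organ. V1R receptors (Vmn1r genes) have their coding sequence in a single exon and are made in apical neurons together with the G protein subunit Gnai2. V2R receptors (Vmn2r genes) carry a long extracellular domain encoded over several exons and are made in basal neurons together with Gnao1. Both families lie in tandem clusters with many pseudogenes, and a mature neuron makes 1 or a few receptors.

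Sequences around the start of a RefSeq transcript are shown for the intact gene with the most reads in each family. A near-identical pair of neighbours is also shown for each family. The pairs are shown because the share of sequence in common with other members went with a member's level in the results below. Each runs 5′ to 3′ on the gene's own strand, from 250 bases before to 50 bases after the start of a RefSeq transcript, and comes from RefSeq on GRCm38.p6. In each sequence shown, the last 50 bases begin with atg, as a coding sequence does. The windows may therefore lie at the start of the coding sequence and away from a promoter. For the receptors, promoter below means this window only. In the first pair of sequences capitals mark CG dinucleotides. Vmn1r4 lies on the plus strand at chr6:56956263-56956562, and Vmn2r106 on the minus strand at chr17:20285381-20285680. Each window held 1 CG.
Vmn1r4: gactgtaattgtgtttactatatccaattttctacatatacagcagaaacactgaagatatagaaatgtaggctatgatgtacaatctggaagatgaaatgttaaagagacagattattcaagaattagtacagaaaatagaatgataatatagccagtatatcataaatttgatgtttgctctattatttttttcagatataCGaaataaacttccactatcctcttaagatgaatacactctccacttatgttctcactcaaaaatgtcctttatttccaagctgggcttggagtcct
Vmn2r106: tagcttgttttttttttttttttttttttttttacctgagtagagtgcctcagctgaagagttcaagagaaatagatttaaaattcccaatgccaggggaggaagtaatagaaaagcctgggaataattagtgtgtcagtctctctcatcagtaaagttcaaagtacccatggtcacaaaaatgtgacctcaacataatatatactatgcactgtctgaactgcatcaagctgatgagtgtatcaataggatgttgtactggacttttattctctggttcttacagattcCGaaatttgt

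In the next 4 sequences capitals mark the positions at which the members of a pair differ. Vmn1r173 (chr7:23702092-23702391, plus strand) and Vmn1r174 (chr7:23753661-23753960, plus strand) differed at 3 positions of 300. Vmn2r114 (chr17:23312264-23312563, minus strand) and Vmn2r115 (chr17:23343727-23344026, plus strand) differed at 2.
Vmn1r173: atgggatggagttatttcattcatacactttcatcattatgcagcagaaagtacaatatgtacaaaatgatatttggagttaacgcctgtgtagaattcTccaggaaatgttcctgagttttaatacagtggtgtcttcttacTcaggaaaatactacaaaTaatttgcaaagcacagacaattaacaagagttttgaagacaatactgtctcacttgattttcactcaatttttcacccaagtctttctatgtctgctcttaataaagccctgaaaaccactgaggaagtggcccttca
Vmn1r174: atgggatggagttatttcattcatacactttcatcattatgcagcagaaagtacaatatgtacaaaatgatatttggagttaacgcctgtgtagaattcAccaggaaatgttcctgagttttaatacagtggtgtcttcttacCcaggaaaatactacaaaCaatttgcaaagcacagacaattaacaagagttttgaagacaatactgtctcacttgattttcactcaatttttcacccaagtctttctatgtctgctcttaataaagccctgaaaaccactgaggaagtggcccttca
Vmn2r114: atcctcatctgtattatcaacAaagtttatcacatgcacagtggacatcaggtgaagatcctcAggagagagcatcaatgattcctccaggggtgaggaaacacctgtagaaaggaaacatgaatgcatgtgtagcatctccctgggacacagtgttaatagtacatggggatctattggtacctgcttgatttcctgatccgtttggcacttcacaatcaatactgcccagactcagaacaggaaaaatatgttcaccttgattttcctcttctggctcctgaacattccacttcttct
Vmn2r115: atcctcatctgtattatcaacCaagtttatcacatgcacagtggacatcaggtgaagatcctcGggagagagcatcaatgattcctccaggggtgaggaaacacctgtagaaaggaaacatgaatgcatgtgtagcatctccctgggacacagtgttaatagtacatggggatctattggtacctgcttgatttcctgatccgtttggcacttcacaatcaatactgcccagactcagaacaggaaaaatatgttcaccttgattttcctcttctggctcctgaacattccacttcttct

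Accessibility of the Zscan4 genes gives no check of the labels, since 6 of 8 Zscan4 rows had no read and the 8 rows together had 1, 0, 2 and 1 reads in the 4 libraries. The libraries were shallow, with totals of 1061428 and 2903602 reads in controls 1 and 2 against 3605774 and 4899494 with Zscan4 OE 1 and 2. The sources used here do not say which total is which library's. Of the 8 placements in rotation order, the one used made the share of reads in the table's rows most alike between libraries. RPKM below means recovered reads per kilobase of recovered feature length and per 1000000 reads of the library total. The level of a class, its summed RPKM, is the summed reads of its rows over their summed length. Intervals are exact Poisson 95% intervals, and reads carry no molecular identifiers, so they cover counting error only. Lists of embryonic stem cell and fibroblast markers, 10 and 6 genes, had summed RPKM of 1.19 to 2.70 and 0.729 to 0.886. Accessibility over exons does not measure RNA, so these values do not test the cell type.

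The receptor exons were covered thinly in every library. The 399 rows held 243 and 676 reads in controls 1 and 2, and 871 and 1106 with Zscan4 OE. Their summed RPKM was 0.252 in control 1 (interval 0.221 to 0.286), 0.256 in control 2, 0.266 in Zscan4 OE 1 and 0.249 in Zscan4 OE 2. The intervals overlapped. The closeness of the 4 values is in part built in, since the totals were placed to make the shares of reads in rows alike. Ratios between classes within a library do not depend on the totals. All other rows of the table had a summed RPKM of 0.933 ± 0.181 (SD, n = 2) in controls and 0.976 ± 0.175 (SD, n = 2) in Zscan4 OE, so the receptors stood at 0.238, 0.319, 0.242 and 0.292 of that level in the 4 libraries (mean ratio 0.270).

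The receptors as a whole were also lower than the olfactory receptors (Olfr), the most similar chemoreceptor family in gene structure and clustering. Olfr rows, 1346 in number, had a summed RPKM of 0.290 and 0.328 in the controls against 0.33 and 0.311 with Zscan4 OE. The ratio of vomeronasal to olfactory receptors was 0.869, 0.782, 0.798 and 0.799 (mean 0.811). It was below 1 in 4 of 4 libraries, in a two-sided exact sign-flip permutation test over libraries with p = 0.12 (2 of 16 sign patterns), the smallest value 4 libraries can give (0.143 after Benjamini-Hochberg adjustment over 8 such ratios). By class, Vmn1r pseudogenes lay above Olfr in control 1 and in both Zscan4 OE libraries, at 0.542, 0.402 and 0.396 RPKM. In control 2 they lay below Olfr, at 0.286. Intact Vmn1r genes, intact Vmn2r genes and Vmn2r pseudogenes lay below Olfr in each library. Bitter and sweet or umami taste receptors (Tas1r and Tas2r, 43 rows) had 0.503 RPKM over all 4 libraries and trace amine receptors (Taar, 13 rows) 0.368. Formyl peptide receptors (Fpr), of which several are made in vomeronasal neurons, had 25 reads in all and 0.290 RPKM.

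**Figure D1:**
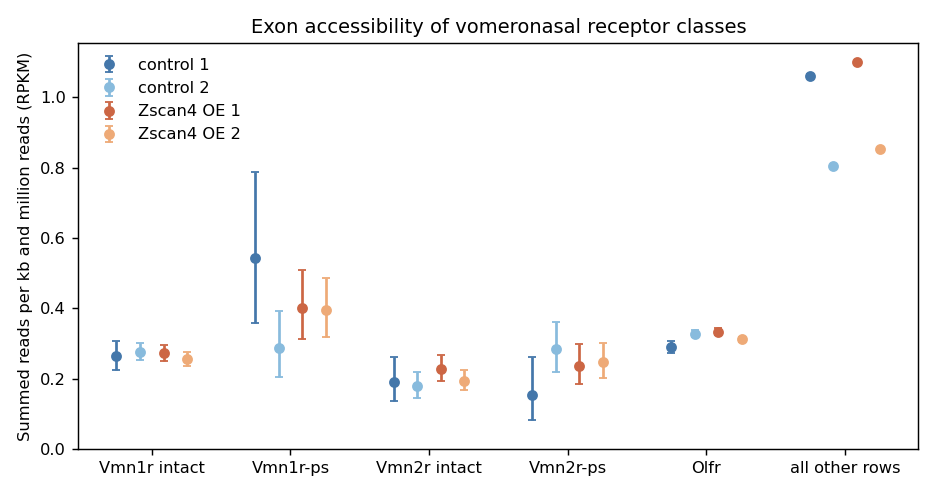
Summed RPKM (vertical axis) of the 4 classes of vomeronasal receptor rows, of olfactory receptors and of all other rows (horizontal axis), with 1 point for each library and exact Poisson 95% intervals. The 4 receptor classes sit between 0.153 and 0.542, and the other rows between 0.805 and 1.10.

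Rows without any read were more frequent among the receptors. No read was recovered in any library in 52 of the 399 rows (13%), against 4.51% of all other rows and 3.27% of Olfr rows. They were 9 of 145 Vmn1r genes, 18 of 88 Vmn1r pseudogenes, 14 of 92 Vmn2r genes and 11 of 74 Vmn2r pseudogenes. A row without reads has no recovered length and so enters no summed RPKM, and a count of 0 in a library allows up to 3 reads there. The share of receptor rows with a read followed depth, at 29.6%, 52.9%, 58.4% and 66.4% in the 4 libraries, and was 29.6%, 31.7%, 32.1% and 32.7% once every library was thinned to the depth of control 1.

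Vmn1r rows were more accessible than Vmn2r rows in each library. Vmn1r rows had a summed RPKM of 0.283 and 0.277 in controls 1 and 2 against 0.282 and 0.265 with Zscan4 OE 1 and 2. Vmn2r rows had 0.180 and 0.210 in the controls against 0.230 and 0.210 with Zscan4 OE. The 2 ranges did not overlap. The ratio was 1.58, 1.32, 1.23 and 1.27 (mean 1.34, higher in 4 of 4 libraries, two-sided exact sign-flip permutation p = 0.12, adjusted p = 0.143), which cannot pass 0.05 with 4 libraries. Among intact genes alone Vmn1r had 0.263, 0.276, 0.272 and 0.255 RPKM and Vmn2r 0.191, 0.179, 0.227 and 0.194, a mean ratio of 1.35. Among pseudogenes the mean ratio was 1.76, from 1.01 in control 2 to 3.54 in control 1, where it rested on 27 and 13 reads.

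Vmn1r pseudogenes lay above intact Vmn1r genes in summed level. They had a summed RPKM of 0.542 and 0.286 in controls 1 and 2 against 0.402 and 0.396 with Zscan4 OE, above intact Vmn1r genes in each library. The ratio of intact to pseudogene was 0.485, 0.964, 0.678 and 0.645 (mean 0.672, two-sided exact sign-flip permutation p = 0.12). These rows were short, and 18 of 88 had no read and so no length. With each row without reads given the median length of its class the mean ratio was 0.822, and the ratio of the median members was 0.970. Vmn1r pseudogenes of at least 500 bp had 0.349 RPKM over the 4 libraries and shorter ones 0.554. Recovered lengths may be too small by a common factor, so a row may fall under 500 bp for that reason. For example, Vmn1r-ps17 had 447 bp against a RefSeq span of 902 bp, and Vmn1r-ps49 had 293 bp against 897 bp. The same limit holds for the other splits by length.

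In the Vmn2r family the order of summed levels of intact genes and pseudogenes was not the same in every library. Vmn2r pseudogenes had 0.153 and 0.284 RPKM in the controls against 0.236 and 0.248 with Zscan4 OE. The ratio of intact to pseudogene was 1.24 in control 1 and 0.628, 0.963 and 0.782 in the other libraries (mean 0.876, lower in 3 of 4 libraries, two-sided exact sign-flip permutation p = 0.375). It turned to 1.03 with rows of 500 bp or more, and was 0.438 between the median members and 0.549 between means over rows (exact sign-flip permutation p = 0.12). Without the 3 rows with most reads in each class it was 0.792. Taking the class from the RefSeq gene type in place of the symbol gave 0.871 for Vmn2r and 0.665 for Vmn1r.

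The counted features of the classes differed in kind. Recovered lengths were compared with the span from start to end of each gene in RefSeq. Intact Vmn1r rows had a median length of 3384 bp against a median span of 933 bp, and 92 of 136 rows were at least 2 times as long as their span, up to 14362 bp for Vmn1r18 (span 900 bp). The authors' annotation therefore gave most Vmn1r genes more exon sequence than RefSeq does. Vmn1r pseudogenes had a median length of 744.5 bp against 818 bp, and 33 of 69 were within 5% of their span. Intact Vmn2r rows clustered at a median of 2571 bp, the size of a coding sequence, inside a median span of 26101 bp.

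Over the 4 libraries together the level of intact Vmn1r genes was alike at all lengths. Rows under 1500 bp had 0.273 RPKM (interval 0.221 to 0.335), rows of 1500 to 5000 bp had 0.269 and longer rows 0.263 (interval 0.249 to 0.278). These values differed by less than their counting error. By library, rows under 1500 bp had 0.342 and 0.400 in the controls against 0.211 and 0.230 with Zscan4 OE, and rows over 5000 bp had 0.262 and 0.273 in the controls against 0.278 and 0.247 with Zscan4 OE. The short rows, with 94 reads in all, were thus above the long ones in both controls and below them in both Zscan4 OE libraries, a difference that was not tested. The members of a class varied by more than counting: a chi-square of reads against length, divided by its degrees of freedom, was 7.96 for intact Vmn1r, 2.15 for Vmn1r pseudogenes, 5.61 for intact Vmn2r and 3.50 for Vmn2r pseudogenes, where 1 would be counting error alone.

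**Figure D2:**
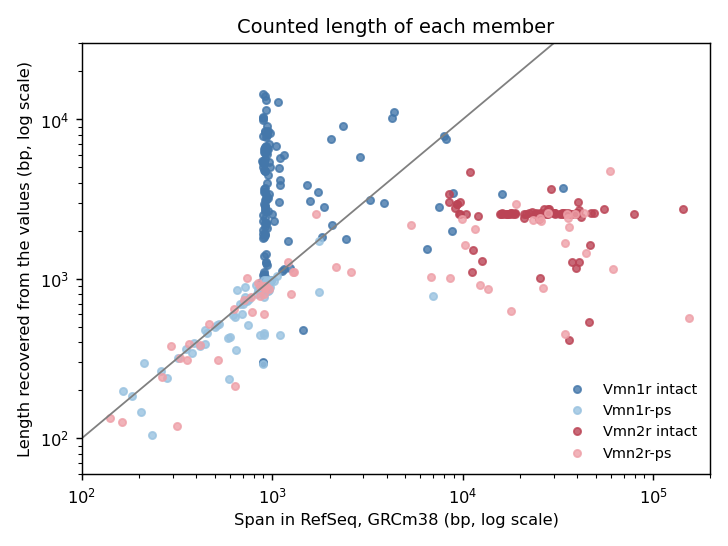
Recovered length of each member with a read (vertical axis, bp, log scale) against its span in RefSeq (horizontal axis, bp, log scale), coloured by class, with a grey line where both are equal. Most intact Vmn1r genes stand above the line near a span of 933 bp, pseudogenes of the Vmn1r family lie on it, and intact Vmn2r genes form a band near 2571 bp.

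Single members carried few reads. Only 37 of the 399 rows had 20 reads or more over the 4 libraries, 33 intact Vmn1r and 4 intact Vmn2r genes, and no pseudogene did. Vmn1r4 (chromosome 6, 56923914 to 56957608) had the most, with 9 and 21 reads in the controls against 29 and 22 with Zscan4 OE. Its level was 2.27 and 1.93 RPKM in the controls against 2.15 and 1.20 with Zscan4 OE, high in every library, with overlapping groups. Its RefSeq span overlaps that of Nt5c3, a nucleotidase gene, so reads in the overlap cannot be assigned to either gene. In all, 4 members overlap another protein-coding gene, with chemoreceptors and Gm, LOC and Rik symbols left out, and 2 of them had a read.

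The next members by reads were also V1R genes. The longer row of Vmn1r216 (chromosome 13, 10213 bp) had 1.48 and 0.742 RPKM in the controls against 0.326 and 0.480 with Zscan4 OE, lower in both Zscan4 OE libraries (adjusted p = 0.869, limma). Vmn1r43 (chromosome 6, 89869461 to 89870529) had 0.293 and 0.188 RPKM in the controls against 0.539 and 0.508 with Zscan4 OE, higher in both (adjusted p = 0.869, limma). Groups that do not overlap were therefore found in both directions among the best covered members. At the lower end, Vmn1r58, Vmn1r18 and Vmn1r81 had 0.206, 0.218 and 0.258 RPKM over the 4 libraries on 26, 39 and 45 reads.

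The V2R genes with the most reads varied between libraries of a group. Vmn2r106 (chromosome 17, 20267547 to 20285430) had 2.55 and 0.798 RPKM in the controls against 0.107 and 1.18 with Zscan4 OE. Vmn2r73 (chromosome 7) had 0.737 and 0 in the controls against 1.74 and 0.399 with Zscan4 OE. Vmn2r83 (chromosome 10) had 2.17 and 0.792 in the controls against 1.06 and 0.0782 with Zscan4 OE. In each of these 3 genes the groups overlapped and libraries of 1 group differed by more than the groups did. Among pseudogenes, Vmn1r-ps47 had 0, 1, 0 and 12 reads and Vmn1r-ps27 had 9, 0, 1 and 0, so single libraries held nearly all of their reads. Vmn2r-ps133 had 1, 3, 6 and 7 reads and Vmn2r-ps54 had 1, 10, 3 and 2.

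Members with a close copy had lower levels. For each of 216 intact genes with a RefSeq promoter, the identity of its 300 bases to the most similar other member was computed, a comparison chosen after the data had been seen. Intact Vmn2r genes under 80% identity (18 genes) had 0.369 RPKM over the 4 libraries (interval 0.321 to 0.422), those at 80 to 95% (55 genes) had 0.154, and those at 95% or more (15 genes) had 0.0854 (interval 0.0584 to 0.121). Of the 14 Vmn2r genes without reads, 10 fell in the middle range and 3 in the highest. By library, Vmn2r genes at 80% or more had 0.101 and 0.140 RPKM in the controls against 0.160 and 0.133 with Zscan4 OE. Those under 80% had 0.446 and 0.311 in the controls against 0.411 and 0.355 with Zscan4 OE. The 2 ranges were far apart, with ratios of 0.226, 0.451, 0.390 and 0.373 (mean 0.349, two-sided exact sign-flip permutation p = 0.12).

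In the V1R family the lower level was seen at the highest identity. Intact Vmn1r genes at 95% or more (10 genes) had 0.0853 RPKM (interval 0.0583 to 0.120), those at 80 to 95% (34 genes) 0.290 and those under 80% (84 genes) 0.274. With 80% as the limit the ratio was 0.806, 0.928, 0.927 and 0.995 (mean 0.911), and with 90% it was 0.465. The pairs printed above are examples. Vmn1r173 had no read in any library and Vmn1r174 had 1, 1, 0 and 2, over a recovered length of 9058 bp. Vmn2r114 had 0, 0, 0 and 1 read and Vmn2r115 had 0, 0, 2 and 1. The sources used here do not give how the alignment and counting treated reads that match several copies, and its part in these levels was not tested.

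The order of the families differed between ranges of this measure. Among members under 80% promoter identity, intact Vmn1r genes had 0.267 and 0.294 RPKM in the controls against 0.278 and 0.260 with Zscan4 OE, below the intact Vmn2r genes in each library. The ratio of Vmn1r to Vmn2r was then 0.727 (0.599, 0.947, 0.675 and 0.731 in the 4 libraries), in the opposite direction to that over all members (two-sided exact sign-flip permutation p = 0.12). At 80 to 95% identity, intact Vmn1r genes had 0.243 and 0.311 RPKM in the controls against 0.288 and 0.289 with Zscan4 OE. Intact Vmn2r genes in that range were lower in each library, at 0.128, 0.166, 0.179 and 0.135. At 95% or more the families had 0.0853 and 0.0854 over the 4 libraries. Without members of 95% or more, the mean ratio among intact genes was 1.25. Of the matched intact genes, 70 of 88 Vmn2r but 44 of 128 Vmn1r had a promoter at least 80% identical to another member. Its part in the family difference was not tested.

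**Figure D3:**
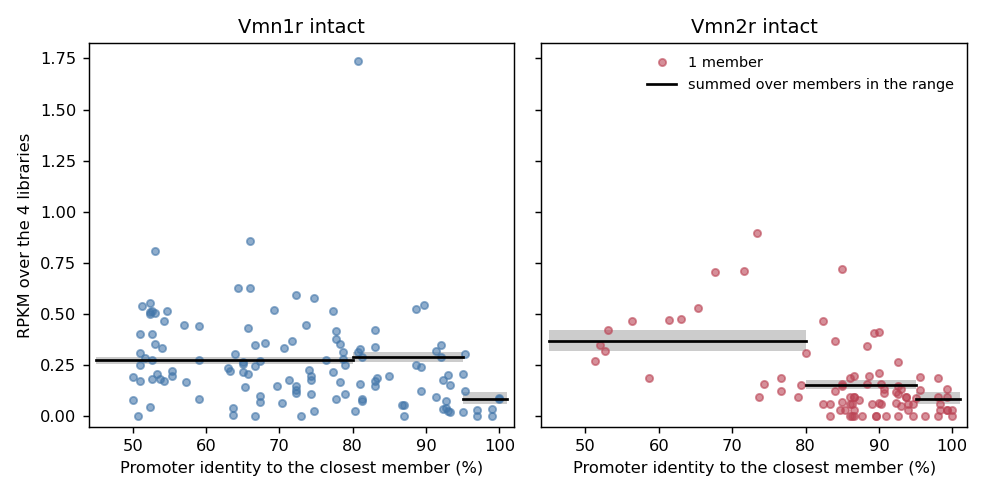
RPKM of each intact member over the 4 libraries (vertical axis) against its identity to the closest other member (horizontal axis, %), for Vmn1r (left) and Vmn2r (right). Identity was taken over the 300 bases around a RefSeq transcript start, labelled promoter. Points are single genes, and black lines with grey bands give the summed RPKM and its 95% interval in 3 ranges of identity, which steps down from 0.369 to 0.0854 in Vmn2r and falls to 0.0853 only in the highest range in Vmn1r.

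The receptors lay on 15 chromosomes, in 35 groups separated by more than 2000000 bp without a member. Of these, 12 had 8 or more members. The largest ones had like levels over the 4 libraries. The group on chromosome 7 from 5146490 to 14562171 (66 rows, mostly Vmn1r) had 0.283 RPKM, that on chromosome 17 from 17703941 to 23479597 (64 rows of both families) had 0.276, that on chromosome 13 from 22057168 to 23269501 (57 Vmn1r rows) had 0.279, and that on chromosome 6 from 56923914 to 58504695 (42 Vmn1r rows) had 0.293. Their intervals overlapped. The groups of 23 and 8 Vmn1r rows on chromosome 6, from 89698657 to 90270053 and from 66552183 to 66805332, had 0.286 and 0.275 RPKM. The group of 9 Vmn2r rows on that chromosome, from 123308333 to 124231784, had 0.210.

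Some smaller groups were lower. The group of 12 Vmn2r rows on chromosome 5 from 108797193 to 109731447 had 0.104 RPKM (interval 0.0678 to 0.152), and its promoters had a median identity of 92.3% to the closest member. The group of 14 Vmn1r rows on chromosome 7 from 23504642 to 23985048, which holds Vmn1r173 and Vmn1r174, had 0.116 RPKM (interval 0.0898 to 0.148) at a median identity of 75.5%. The group of 13 Vmn2r rows on chromosome 7 from 41399732 to 42933789 had 0.138 RPKM. The intervals of these 3 lay below those of the 4 largest groups.

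Some small groups varied between libraries. The group of 14 Vmn2r rows on chromosome 3 had 0.0736 and 0.0672 RPKM in the controls against 0.271 and 0.295 with Zscan4 OE, on 69 reads in all. The group of 33 Vmn2r rows on chromosome 7 from 84810427 to 86885789 had 0.237 and 0.0867 in the controls against 0.394 and 0.271 with Zscan4 OE. In both, the Zscan4 OE libraries lay above the controls. In the other direction, the group of 14 Vmn1r rows on chromosome 7 had 0.147 and 0.146 in the controls against 0.0681 and 0.128 with Zscan4 OE. The group of 13 Vmn2r rows on chromosome 7 had 0.108 and 0.291 in the controls against 0.106 and 0.0783 with Zscan4 OE. Of the 12 groups, 2 were thus higher and 2 lower in both Zscan4 OE libraries, and the others overlapped. The lower place of the group of 13 Vmn2r rows rested on 0.108 in a control against 0.106 with Zscan4 OE. Among all tested rows of the table, taken singly, controls and Zscan4 OE did not overlap in 29.7%. No such share was computed for sums of rows, so these counts do not set the groups apart from other rows. The groups named here were picked after their values had been seen, and no test was run on them.

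**Figure D4:**
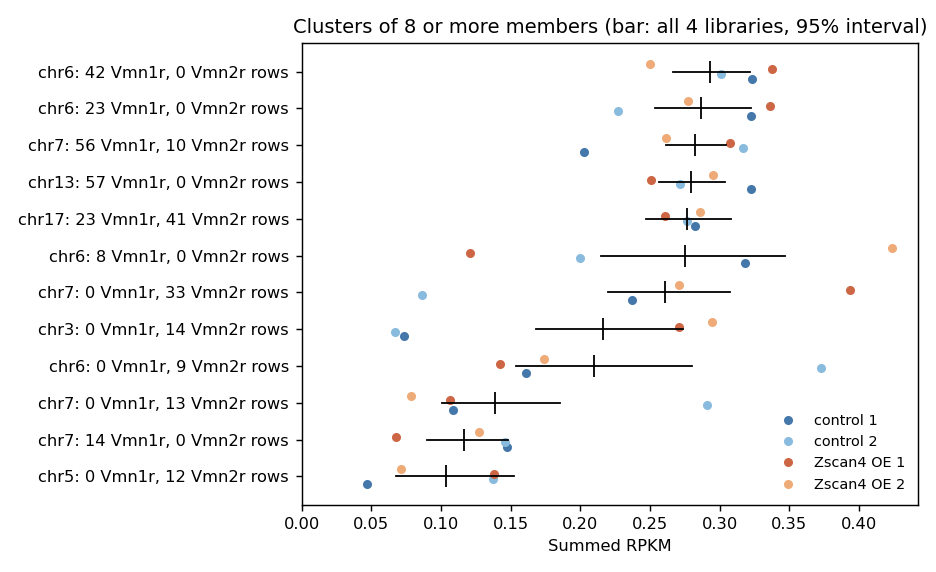
Summed RPKM (horizontal axis) of each genomic group of 8 or more members (vertical axis, named by chromosome and number of rows of each family). Coloured points are the 4 libraries, and the black tick and line give all libraries together with the 95% interval, from 0.104 for the lowest group to 0.293 for the highest.

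Members near another kind of gene had more reads per length over the 4 classes as a whole. Of 395 members placed on GRCm38, 67 lay within 50000 bp of a protein-coding gene that is no chemoreceptor. Genes with Gm, LOC or Rik symbols were also left out as neighbours, so members counted as farther away may lie beside such genes. Those with a read had 0.336 and 0.378 RPKM in the controls against 0.323 and 0.335 with Zscan4 OE. Members farther away had 0.241 and 0.240 in the controls against 0.258 and 0.237 with Zscan4 OE. The near members were higher in 4 of 4 libraries, with ratios of 1.39, 1.58, 1.25 and 1.41 (mean 1.40, two-sided exact sign-flip permutation p = 0.12), and the mean ratio was 1.19 without Vmn1r4. Vmn1r pseudogenes were the exception among the 4 classes, with 0.340 RPKM near and 0.396 farther away over the 4 libraries. Near intact Vmn2r genes, with 64 reads in all, were lower in Zscan4 OE 2, at 0.166 RPKM against 0.197 farther away. They were higher in the other libraries. This split was chosen after the data had been seen.

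The windows around RefSeq transcript starts of the receptors were poor in CG dinucleotides. In the windows printed above, the transcript starts on an atg, so windows may hold coding sequence and lie away from a promoter. Whether this holds as often over all RefSeq windows was not examined. The shares below may therefore set unlike regions side by side. RefSeq promoters matched 217 member symbols. Their median GC content was 36.3% against 52.7% over all 32851 RefSeq promoters, and their median number of CG dinucleotides was 1 against 7. None of the 217 held 10 or more, as 43.5% of all promoters did, and Olfr promoters were alike, with a median of 1 and 0.217% at 10 or more. The letters TATAAA, searched on both strands, stood in 36.7% of Vmn1r and 26.1% of Vmn2r promoters against 13.6% of all and 40.9% of Olfr promoters. The repeat TGTGTGTGTG, on either strand, stood in 8 of 88 Vmn2r promoters (9.09%) and in 0.781% of Vmn1r promoters against 1.61% of all. Of those 8 genes, 5 lay on chromosome 5 and 2 on chromosome 14, and several were close copies of one another, so they are not independent cases. The 8 had 0, 5, 8 and 4 reads in the 4 libraries and 0.107 RPKM.

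Between control and Zscan4 OE the receptors as a whole differed by less than the spread between libraries, under a placement of totals that favours like levels. The mean summed RPKM was 0.254 ± 0.00302 (SD, n = 2) in controls and 0.257 ± 0.0123 (SD, n = 2) in Zscan4 OE, a ratio of 1.01 (two-sided exact permutation p = 1; 2 against 2 cannot go below 0.33). With the reads of all rows as the denominator, which no placement affects, the ratio was 0.960, and in the values as deposited, on mixed totals, it was 2.12. The ratio was 0.977 for Vmn1r rows (exact permutation p = 0.667) and 1.13 for Vmn2r rows (exact permutation p = 0.667). Under the placement used, intact Vmn2r genes were higher in both Zscan4 OE libraries than in both controls, by 1.14-fold (exact permutation p = 0.33, adjusted p = 1 over 11 classes). As a share of the reads of all rows the groups overlapped. That share was 0.0297% and 0.0367% in controls 1 and 2 against 0.0342% and 0.0376% with Zscan4 OE 1 and 2. The ratio of Vmn1r to Vmn2r was 1.58 and 1.32 in the controls against 1.23 and 1.27 with Zscan4 OE, so it was lower in both Zscan4 OE libraries (exact permutation p = 0.33, unadjusted).

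No single receptor passed the test. Of the 256 members with a mean RPKM of at least 0.1 (104 intact Vmn1r, 61 Vmn1r pseudogenes, 44 intact Vmn2r and 47 Vmn2r pseudogenes), limma called 0 at an adjusted p under 0.05, and 0% of all 42989 rows tested were called. At an unadjusted p under 0.05 limma gave 14 higher members (5.47%, against 5.09% of all rows) and 3 lower (1.17%, against 1.33%). Both shares were near the background. limma-voom on the recovered reads of the 37 members with 20 reads or more also called 0, with 0.00526% of 19012 rows called, and gave 1 higher and 2 lower at an unadjusted p under 0.05 (background 3.35% and 1.78%). With the replicate number as a block limma called 0 members and gave 6 higher and 3 lower at an unadjusted p under 0.05 (background 3.96% and 1.67%). The libraries of the 2 groups did not overlap in 81 members (31.6%, background 29.7%), and 54 of these were higher with Zscan4 OE (21.1% of members, background 19.6%). Of the 54 higher members 32 had no read in either control, the shallower libraries. Of the 14 higher members at an unadjusted p under 0.05, 13 had none. Over all tested rows 6214 of 42989 had no read in either control, against 53 of the 256 members. Without Zscan4 OE 1 limma called 43 members, all higher (16.8%, background 10.55%), and without Zscan4 OE 2 it called 41, all higher (16.0%, background 9.051%). Each member called in these 2 fits had 0 reads in both controls, and the other arm had a single library. The fits then had no residual scatter of their own in these members. Their calls, and the shares beside the background, therefore cannot show a difference of the receptors.

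The middle of the distribution gave no direction that held under other scalings. The median log2 difference, on the log2(RPKM + 0.1) scale, was 0.24 over the members and 0.28 over all rows, and with the libraries centred on their medians it was -0.031 for the members and with quantile normalization -0.58. It was -0.19 for the members and 0.023 for all rows where a group without reads was set to the limit of 3 reads per library. By class it was 0.080 for intact Vmn1r, 0.52 for Vmn1r pseudogenes, 0.36 for intact Vmn2r and 0.61 for Vmn2r pseudogenes, and -0.078, -0.40, 0.18 and -0.49 with that limit. Differences above 0 made up 57.4% of members and 62.0% of all rows.

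**Figure D5:**
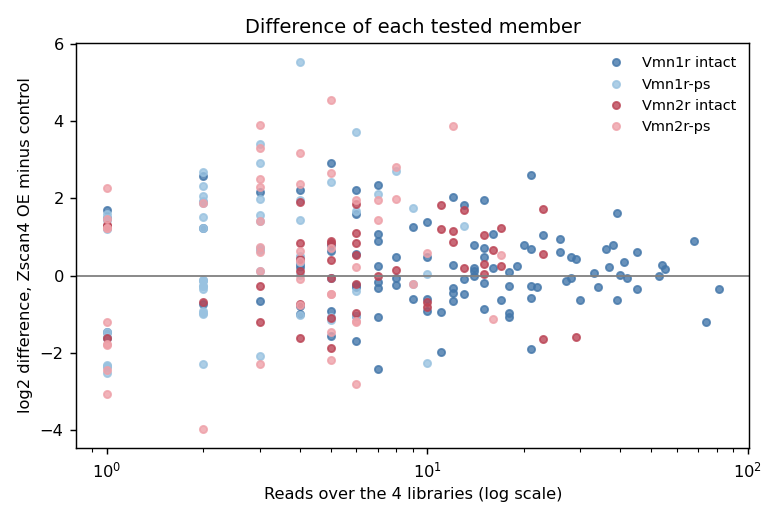
Difference between Zscan4 OE and control on the log2(RPKM + 0.1) scale (vertical axis) for each of the 256 tested members, against its reads over the 4 libraries (horizontal axis, log scale), coloured by class. Differences spread from -3.98 to 5.53 among members with fewer than 10 reads and narrow as reads increase, and none passed an adjusted p under 0.05.

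The members with the strongest statistics were pseudogenes with few reads. Vmn1r-ps16 (chromosome 6, recovered length 105 bp) had 0 reads in both controls and 2 in each Zscan4 OE library (adjusted p = 0.156, limma). Vmn2r-ps75 had 0, 0, 1 and 4 reads, Vmn2r-ps58 had 0, 0, 1 and 2, and Vmn1r-ps9 had 0, 0, 2 and 1, with adjusted p-values of 0.239, 0.287 and 0.530 in limma. Vmn2r-ps127 (chromosome 17, 20329625 to 20336414) had 0 and 0 reads in the controls against 5 and 7 with Zscan4 OE, or 1.35 and 1.39 RPKM (adjusted p = 0.279, limma). Both controls, the shallower libraries, had no read in it.

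The lowest statistics belonged to V1R genes of chromosomes 6 and 17 and to 1 pseudogene. Vmn2r-ps92 had 1 read in each control and 0 in Zscan4 OE (adjusted p = 0.353, limma). Vmn1r237 (chromosome 17, 21314017 to 21314886) had 0.992 and 1.09 RPKM in the controls against 0.292 and 0.215 with Zscan4 OE, on 1, 3, 1 and 1 reads, a log2 difference of -1.70 (SE 0.591, adjusted p = 0.715, limma). Vmn1r35 had 2, 4, 1 and 0 reads and Vmn1r227 had 4, 3, 3 and 1. The groups did not overlap in any of the 4. Vmn1r235 (chromosome 17, 21260427 to 21262863) had 1.59 and 1.16 RPKM in the controls against 0.623 and 0.573 with Zscan4 OE, on 3, 6, 4 and 5 reads (log2 difference -1.06, SE 0.491, adjusted p = 0.869, limma), and its difference was 0.62 in the values as deposited. There the difference of Vmn1r237 was -0.032 and that of Vmn1r227 -0.29, against -1.97 on the rescaled values.

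Genes that work with the receptors gave no call either. A list of 46 genes of vomeronasal signalling, ligands and neuron development had 45 in the table, with a summed RPKM of 0.917 and 0.728 in the controls against 0.95 and 0.792 with Zscan4 OE, and the groups overlapped. All other rows had 1.06 and 0.805 in the controls against 1.10 and 0.852 with Zscan4 OE, above the list in each library. Limma called 0 of the 42 tested, with 29 differences above 0 and 13 below, and a median log2 difference of 0.21 against 0.28 over all rows. Trpc2, the cation channel of vomeronasal neurons, had 3, 8, 9 and 21 reads and 1.14 RPKM. Gnai2 and Gnao1, the G protein subunits of V1R and V2R neurons, had 1.04 and 0.892 RPKM over the 4 libraries, and Gng8, a G protein gamma subunit, had 3.0.

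The other members of that list that stood out had few reads. H2-M10.2 and H2-M10.3, class Ib histocompatibility genes made with V2R receptors, had 0, 0, 7 and 4 reads and 0, 0, 6 and 7 reads, higher in both Zscan4 OE libraries. H2-M10.1 had 1, 5, 0 and 1 reads and H2-M11 had 4, 5, 3 and 2, lower in both as RPKM. Unadjusted limma p-values were 0.0119 for each of the first 2 genes, 0.0351 for H2-M10.1 and 0.0325 for H2-M11. Esp6, of the exocrine gland peptide family that includes V2R ligands, had 0, 0, 1 and 2 reads. At an unadjusted p under 0.05 the list thus had 3 of 42 genes higher (7.14%, background 5.09%) and 2 lower (4.76%, background 1.33%), and relatives in the H2-M10 family lay on both sides of 0.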

How the data were processed

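The libraries were made with the TruePrep DNA Library Prep Kit V2, per the labels. The submitters' processing notes name build mm10 and the tools Trimmomatic, Bowtie2 and featureCounts. The sources used here give no versions, read filters, Tn5 shift, annotation or handling of reads that match several copies. The deposited values are called RPKM per the labels, but each used 1 of 8 library totals that rotate from row to row, so whole reads and lengths were recovered from the values and put on 1 total per library. Reads and lengths are taken as the smallest whole numbers that fit, and may be too small by a common factor. Of the rows, 2127 were 0 throughout, and in 963 with a single value the rotation was ambiguous, and the shortest length was taken. The recovery and limma were tested on simulated data.

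The plan assumed RPKM on 1 scale; the planned tests were run on the rescaled values. limma 3.58.1 (R 4.3.3, eBayes trend, no covariate) was fitted to log2(RPKM + 0.1) of rows averaging 0.1 RPKM or more, two-sided, with Benjamini-Hochberg adjustment over all 42989 rows. Fold ratios between classes were tested by exact sign-flip permutation over the 4 libraries, and between groups by exact permutation. Alternatives were other pseudocounts, filters, scalings, limma-voom, a replicate block, other summaries and leaving out each library. Promoters and coordinates came from RefSeq (GRCm38.p6), with 4 member symbols unmatched. Named members were, by rule, the 3 with the most reads in each class, the 5 most positive and 5 most negative statistics, and the 3 highest and lowest levels among members with 20 reads or more. 1 member that this rule names is not reported here. The members, lists and tests were chosen with earlier results of these data known.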

Additional observations from a re-analysis of the deposited data

How the results depend on the processing

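Of 263 alternative values over 23 results, 242 kept their direction and their side of the threshold, 10 changed direction and 11 passed it. The exact tests of ratios between classes and between groups cannot pass the threshold with so few libraries. For those results the count therefore speaks to direction only. A change in size alone was not counted, such as that from 0.017 to 1.08 for all receptors in Zscan4 OE against control. Changes of direction (log2 ratios) were as follows. For all receptors in Zscan4 OE against control the ratio was 0.017; it was -0.059 with the reads of all rows as denominator, 1.08 in the values as deposited (Vmn2r alone 1.14 against 0.17), and ranged from -0.032 to 0.065 with each library left out. For Vmn1r it was -0.033; it was 1.06 in the values as deposited, 0.010 without the 3 members with most reads and -0.077 to 0.0088 with each library left out. Intact against pseudogene Vmn2r turned to 0.040 at 500 bp or more. Vmn1r against Vmn2r turned to -0.46 with members under 80% promoter identity, overall and for intact genes (-0.46), and Vmn1r at 80% identity or more against less turned to 0.0072 as deposited. Vmn1r235 turned to 0.62 as deposited. The cause of these turns was not tested.

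Calls by limma numbered 0 to 43 with each library left out and 0 under each other alternative. Another 9 values, of 5 named pseudogenes without reads in the controls, passed with a Zscan4 OE library left out. The arm left with 1 library is then assumed to vary like the other. In the members called, both controls had 0 reads and so did not vary. These calls therefore had no residual scatter behind them and cannot show a difference. Libraries with the same number deviated together only weakly (Pearson correlation 0.042 over 42989 rows and 0.129 over the 19011 that had at least 20 reads; rows are not independent), and with a replicate block limma called 0 members, with 6 higher and 3 lower at an unadjusted p under 0.05 (3.96% and 1.67% of all rows). For the receptors as a whole the replicate block gave a log2 ratio of 0.016.

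Alternatives on promoter identity, on rows without reads and on neighbouring genes were chosen after seeing the data. A comparison without members that have a near-identical protein was not run. Depth limits single members, since 37 of 399 rows had 20 reads or more.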
